A study of Mus musculus with 13 samples.

Results

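Carbonic anhydrases were followed in mouse retrosplenial cortex as a family of 8 genes, namely Car2, Car3, Car4, Car7, Car8, Car10, Car11 and Car12. The genes were selected on measured values of these same cells and spots, so their pattern over classes of cells and over zones of the sections is given as a description, without a test. A row was present for 7 of the 8 genes among the 15114 genes of the cell table, and for 8 of 8 among the 32285 genes of the spot table. Car3 was the gene with no row in the cell table.

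Carbonic anhydrases interconvert carbon dioxide and water with bicarbonate and a proton, and so set how fast pH is buffered inside cells and in the space around them. Car2, Car3 and Car7 are cytosolic enzymes: Car2 is the high-activity form known in brain from oligodendrocytes, Car3 belongs to muscle and fat, and Car7 is a neuronal form. Car4, held to the outer membrane by a lipid anchor, and Car12, which spans the membrane, act on the extracellular side. Car8, Car10 and Car11 have lost the active site. Car8 binds the inositol trisphosphate receptor Itpr1 and is abundant in Purkinje cells, while Car10 and Car11 are secreted and bind neurexins.

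The labels give all animals as wild type and name no treatment, and they give the strain B6 for the dissociated neurons. Retrosplenial neurons of 3 animals were microdissected from acute slices at an anterior, a medium and a posterior level, dissociated, pooled across slices and collected as 11 samples of 32 to 80 cells, 765 cells in all. The other material was a pair of 10 µm brain sections on Visium slides, stained for NeuN and DAPI, here called S4 and S8 after their library names. Age and sex are not given in the sources used here, nor which labelled section sample is S4 and which is S8.

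Counts per sample ranged from 2306470 to 15974543, with a median of 138331 counts per cell. The median per cell was 65843, 132797 and 185995 in animals 1, 2 and 3, and 176915, 135072 and 112362 at the anterior, medium and posterior level. Slc17a7, the vesicular glutamate transporter of cortical excitatory neurons, had a count in 756 of 765 cells. Inhibitory neuron markers (3 of 5 with a row) summed to at most 4.14 CPM (counts scaled to a total of 1e6) in any class. Sections S4 and S8 held 1022 and 951 spots with medians of 8266.5 and 6705 counts, and 162 barcode sequences occurred in both. A spot is a small area that can hold several cells, and in its counts fewer cells of a type and less RNA per cell cannot be told apart.

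The cells were grouped into 12 classes by clustering with all carbonic anhydrase genes left out. Levels below are CPM of the summed counts of a class in each animal, given for animals with at least 10 cells of the class, as mean ± SD over animals. Class 1 (200 cells, led by Calb1 and Ddit4l) has no cell type name here, nor have classes 8 (41 cells, Calb1 and Cxcl14) and 11 (11 cells, Kcnip1 and Pvalb). Class 2 (121 cells, Thsd7a and Tnnc2) was granular retrosplenial-like, class 3 (73 cells, Osr1 and Oprk1) layer 6 intratelencephalic-like and class 5 (71 cells, Rprm and Foxp2) layer 6 corticothalamic-like. Classes 4 (71 cells, C1ql2 and Mc4r) and 6 (69 cells, C1ql2 and Nrtn) were layer 5 extratelencephalic-like, and all 71 cells of class 4 came from the posterior level, 29 and 41 of them from animals 1 and 2 and 1 from animal 3. Classes 7 (68 cells, Ptprm) and 9 (24 cells, Ccdc80) were layer 5 intratelencephalic-like, class 10 (11 cells, Cplx3 and Ctgf) layer 6b-like, and class 12 (5 cells, Ptgds and Mog) oligodendrocyte-like. Class 7 led in 3 of 4 markers of the intratelencephalic and 3 of 4 of the extratelencephalic list, and its name rests on Il1rapl2 among its leading genes. These names were rebuilt from marker genes, since no annotation of the cells was used.

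Detection split the family into broad and narrow members. Car11 had a count in 735 of 765 cells (96.1%, exact 95% interval 94.4 to 97.3%, counting error only). Car10 had one in 548 (71.6%), Car7 in 451 (59.0%) and Car4 in 336 (43.9%). Car12, Car2 and Car8 had counts in 47 (6.14%), 34 (4.44%) and 10 (1.31%) cells. The median cell held counts of 3 of the 7 genes, and 4 cells, all of class 11, held none. By sample, Car11 ranged from 207 to 394 CPM (median 289), Car10 from 89.0 to 181 (145), Car4 from 41.8 to 165 (117) and Car7 from 40.0 to 73.3 (60.5), a narrower range for Car4 and Car10 than that over the classes below.

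**Figure D1:**
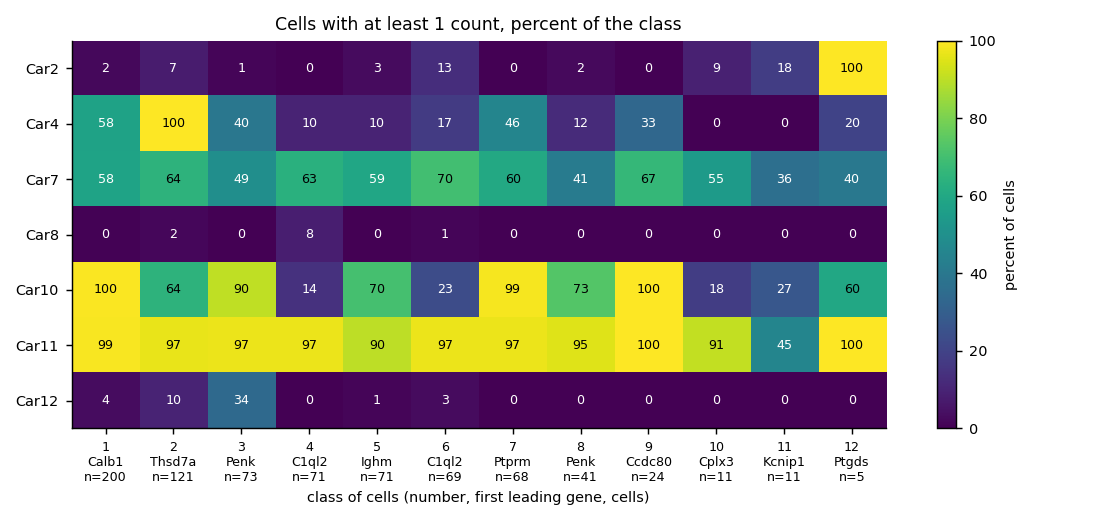
Percent of the cells of each class (columns, with the first leading gene and the number of cells) that had at least 1 count of each carbonic anhydrase (rows). Car4 fills class 2 at 100%, Car10 is near 100% in classes 1, 7 and 9 and at 14.1% and 23.2% in classes 4 and 6, and Car12 stands at 34.2% in class 3 and at 9.92% or less elsewhere.

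Among the cytosolic enzymes, Car2 was found in few cells, and most of its counts lay in class 12. Of its 568 counts, 357 lay in the 5 cells of class 12, which held 41, 39, 114, 113 and 50 counts each and together gave 390.4 CPM. In these 5 cells the 6 oligodendrocyte markers summed to between 4059 and 8727 CPM, against 232 or less in the 29 other cells with a Car2 count and 962 or less in the 731 cells without one. All 5 cells came from the anterior level, from all 3 animals, and each also held 8 to 35 counts of Slc17a7. No doublet caller was run, and whether these cells are single cells was not tested. The remaining 211 counts were spread over 29 cells, 10 of which held a single count. Class 2 gave 8.54, 1.60 and 5.14 CPM in animals 1, 2 and 3, and class 6 gave 4.04, 4.24 and 2.24. The small classes 11 and 10 gave 17.4 and 6.13 CPM over 11 cells each, from 2 cells and 1 cell with a count. Classes 4, 7 and 9 held no Car2 count in 71, 68 and 24 cells, which allows shares of cells with a count of up to 5.06, 5.28 and 14.2% (exact 95% limits, covering counting error only).

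Car7, the neuronal enzyme, was spread over all classes. Its highest level was 96.4 ± 37.3 CPM (SD, n = 3) in class 5, with 113, 53.7 and 122 in the 3 animals, and its lowest 42.1 ± 15.3 (n = 2) in class 4, a ratio of 2.29. The animals of class 5 overlapped those of class 7 (70.3 and 74.9 CPM). From class 2 down to class 4 every neighbour in the order overlapped as well, in 6 classes between 42.1 and 56.0 CPM. The share of cells with a Car7 count ran from 36.4% in class 11 to 69.6% in class 6, so even where the level was highest many cells held none (42 of 71 cells of class 5 had a count).

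Of the membrane-bound enzymes, Car4 was concentrated in the granular retrosplenial-like class and Car12 in the layer 6 intratelencephalic-like class. Both genes ranked among the 10 leading genes of these classes although neither took part in drawing them. The 250 bases before a RefSeq start of each gene (build GRCm38.p6, plus strand) are shown, with CG pairs in capitals, because over the classes with 10 or more cells per animal these 2 genes, after the rare Car8, had the largest ratio of the highest class to the next. The first window is chr11:84957504-84957753 and the second chr9:66713436-66713685, and both are written 5′ to 3′ and end at the base before that start. For Car4 it is the first base of the gene, while the Car12 gene begins upstream, at 66712296, so its window lies inside the span of the gene.
Car4: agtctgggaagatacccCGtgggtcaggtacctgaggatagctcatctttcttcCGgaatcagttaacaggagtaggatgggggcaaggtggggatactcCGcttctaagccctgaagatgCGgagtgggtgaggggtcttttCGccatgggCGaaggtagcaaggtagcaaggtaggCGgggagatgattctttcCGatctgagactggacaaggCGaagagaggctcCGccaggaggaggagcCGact
Car12: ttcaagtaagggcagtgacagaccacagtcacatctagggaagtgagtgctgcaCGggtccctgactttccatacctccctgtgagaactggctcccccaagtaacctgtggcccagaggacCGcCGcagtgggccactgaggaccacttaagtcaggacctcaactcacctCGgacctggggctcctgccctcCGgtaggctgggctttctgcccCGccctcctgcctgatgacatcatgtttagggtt
The Car4 window holds 11 CG pairs and the Car12 window 6. Among all 32851 windows of that length the median was 6, and 64.4% held fewer than the Car4 window against 49.6% for Car12. The letters GGGCGG, read on both strands and containing a CG pair themselves, occur in the Car12 window and not in the Car4 window, and in 32.7% of all windows. The letters TATAAA occur in neither, and in 12.4% of all windows. Windows were at hand for 5 of the 8 genes.

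Car4 reached 434, 426 and 453 CPM in class 2 of animals 1, 2 and 3 (438 ± 14.1, SD, n = 3). Every one of the 121 cells of class 2 had a count, with a median cell at 406 CPM, and the 3 animals lay within a narrow band. The next class was class 1, at 36.5, 80.0 and 49.0 CPM (55.2 ± 22.4), so class 2 stood 7.93 times higher and the ranges did not meet. Class 7 followed at 66.3 and 38.9 CPM in animals 2 and 3, which overlapped class 1. Class 3 gave 0, 34.8 and 36.7 CPM, an animal with no count in 15 cells beside 2 others just below the range of class 7. Within class 1, 115 of 200 cells had a count, the upper quartile lay at 90.2 CPM and the highest cell at 610 CPM, which is above the median cell of class 2. In the layer 5 extratelencephalic-like classes Car4 was low, at 2.91 ± 2.36 (n = 2) in class 4 and 5.03 ± 3.03 (n = 3) in class 6, a ratio of 150.3 between class 2 and class 4. In class 5 it was 14.9, 0.353 and 0.815 CPM. Classes 10 and 11 held none in 11 cells each. A single oligodendrocyte-like cell of animal 2 held 211 counts of Car4, or 827 CPM, while the 4 others held none.

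Car12 gave 32.1, 32.7 and 36.4 CPM in class 3 (33.7 ± 2.32, n = 3). The animals agreed although few cells carried the signal. A count was found in 25 of 73 cells (34.2%, exact 95% interval 23.5 to 46.3%, counting error only). The 5 highest cells held 64.3% of the counts. The next class was class 5 at 18.6, 0 and 0 CPM, where all counts came from 1 cell of animal 1. Class 1 gave 3.26, 0.573 and 1.08 CPM and class 2 gave 1.71, 0.570 and 0.758. In class 2 the 12 cells with a count held 3 or fewer each, and in class 1 a single cell held 16 of 31 counts. In classes 4, 7, 8, 9, 10, 11 and 12 no cell had a count.

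**Figure D2:**
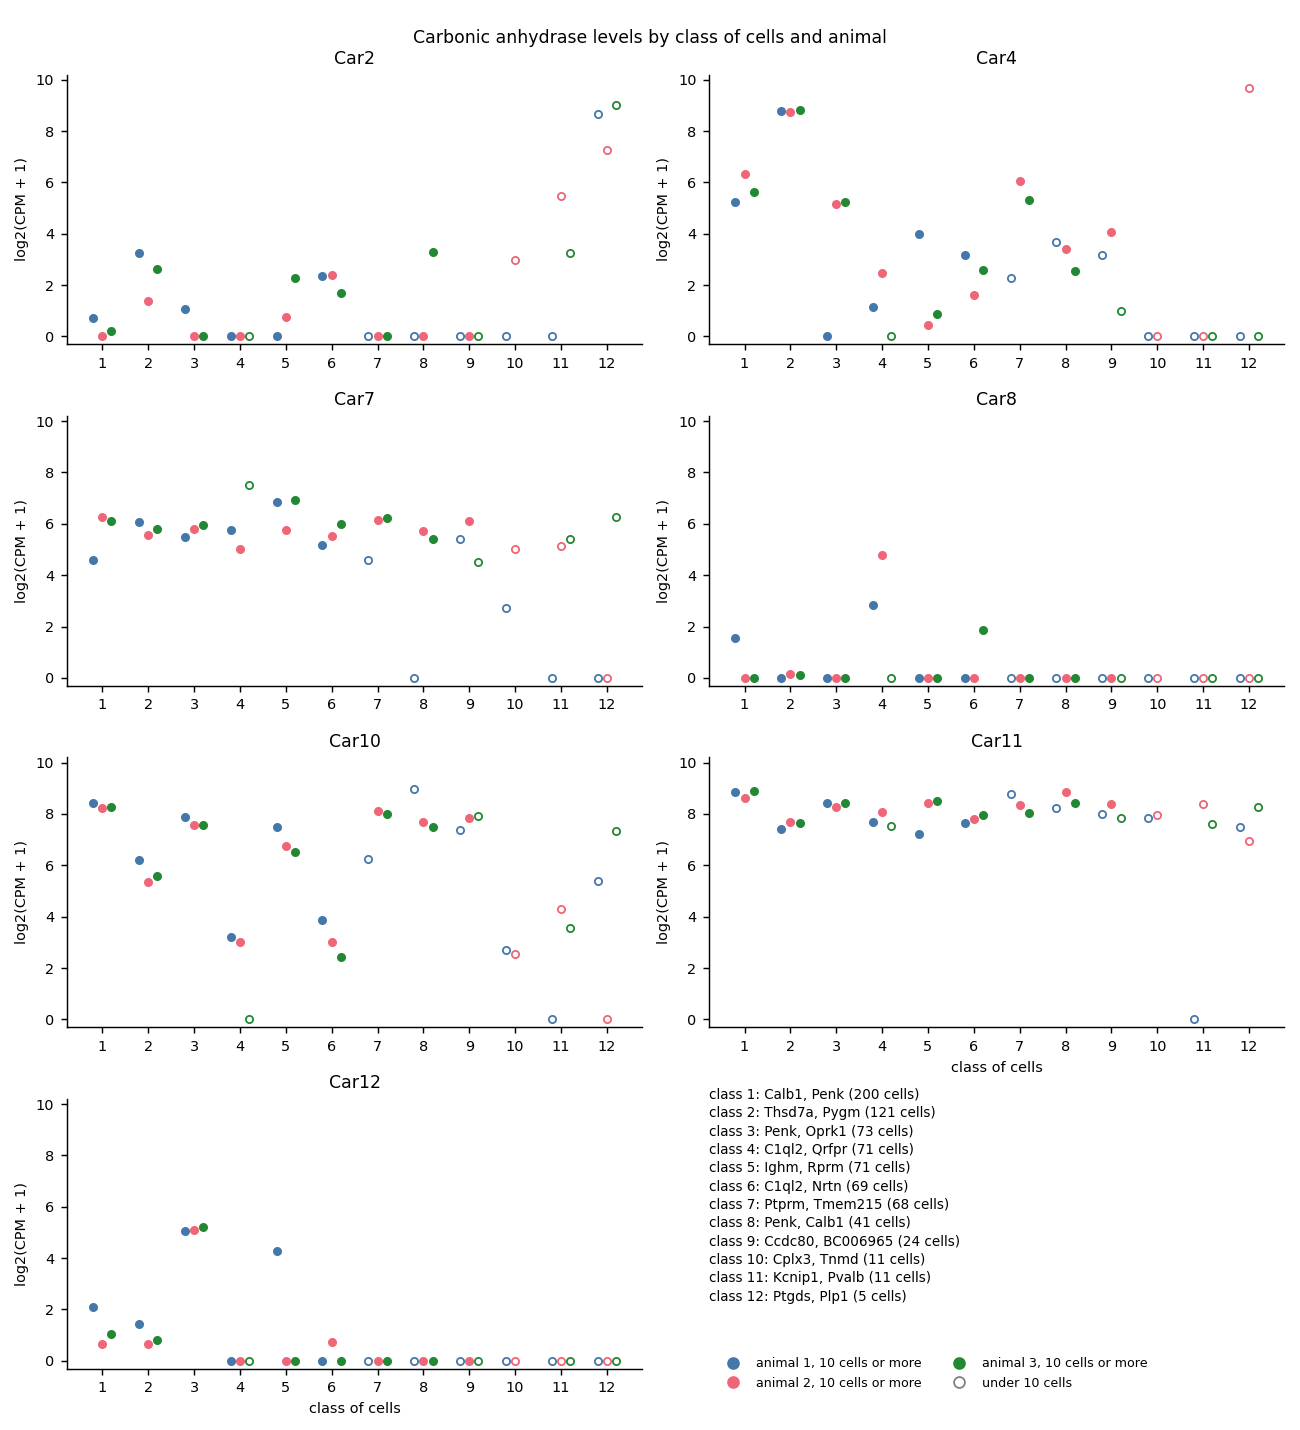
Level of each carbonic anhydrase by class of cells, as log2(CPM + 1) of the summed counts of each animal (colours; open circles mark sums of fewer than 10 cells). Car4 peaks in class 2, Car12 in class 3 and Car2 in class 12, Car10 drops in classes 4, 6, 10 and 11, and Car7 and Car11 vary least over the classes with 10 or more cells per animal.

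Of the proteins without enzyme activity, Car10 was high in classes 1 and 8, which have no name, and in the intratelencephalic-like classes 3, 7 and 9. It was low in the extratelencephalic-like classes 4 and 6 and in the small classes 10 and 11. It was highest in class 1, at 346, 303 and 311 CPM (319.6 ± 23.1, n = 3), where 199 of 200 cells had a count. Class 7 followed at 279.8 and 252 CPM, class 3 at 237, 187 and 189, and class 8 at 206 and 177. Class 1 did not overlap with class 7, nor class 7 with class 3, while class 3 overlapped with class 8 and class 8 with class 5 (180.3, 106 and 89.9 CPM). The granular retrosplenial-like class 2 lay at 73.5, 39.8 and 47.2 CPM (53.5 ± 17.7), with 64.5% of cells detected. Layer 5 extratelencephalic-like cells were lowest among the classes with 10 or more cells per animal, at 8.27 and 6.98 CPM in class 4 of animals 1 and 2 and at 13.8, 7.13 and 4.35 in class 6. The mean of class 1 was 41.9 times that of class 4, and in classes 4 and 6 only 10 of 71 and 16 of 69 cells had a count. Class 10, the layer 6b-like cells, was lower still at 4.90 CPM over 11 cells of 2 animals. Class 11 gave 12.4 CPM over 11 cells, and class 9 gave 218.6 CPM over 24 cells. Class 6 had the deepest cells of any class over 5 cells (median 208257 counts) and class 4 shallower ones (99950). With every cell thinned to 54512 counts and 77 shallower cells left out, 10.4% of class 4 and 14.9% of class 6 kept a Car10 count, against 99.5% of class 1.

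Car11 was present in nearly every cell of nearly every class. Class 1 was highest at 442 ± 41.4 CPM (n = 3) and class 2 lowest at 191 ± 19.7 (n = 3), a ratio of 2.31. From class 3 (331 ± 16.5) down to class 2 each class overlapped the next. At least 90.1% of cells had a count in all classes except class 11, where 5 of 11 did. Over the 22 sums per animal and class of at least 10 cells, Car10 and Car11 had the highest correlation among the 21 pairs of members (Pearson r = 0.56 on log2(CPM + 1)). These points share animals, libraries and class structure, so the value is a description.

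Car8 was close to the limit of detection and belonged mostly to extratelencephalic-like cells of the posterior level. Its 175 counts lay in 10 cells, of which 97 counts were in 1 cell of class 4 of animal 2. Class 4 held 6 of the 10 cells and class 6 held 1, and together these 7 cells carried 170 counts. By animal, class 4 gave 6.20 and 26.7 CPM in animals 1 and 2. Itpr1, the receptor that Car8 binds, was over all cells of a class lowest in class 4 (113 CPM) and highest in class 3 (383 CPM), where no cell of 73 had a Car8 count.

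For each gene, the 3 genes most alike over the same 22 sums were looked up among 10256 genes with a mean of at least 5 CPM. Car10 had the closest company, with Fstl4 (r = 0.93), Rasgef1b (0.92) and Kcnh1 (0.91). Car12 was most like Dmkn (0.91), Sulf1 (0.85) and Pcp4l1 (0.79), and Car4 most like 1600021P15Rik (0.84), Apba2 (0.81) and Mmel1 (0.81). Metrnl (0.85) and Otub2 (0.84) were among those of Car11. Car7 and Car8 reached 0.72 with Klf9 and 0.74 with Qrfpr at most, and Car2, at 0 in many sums, 0.79 with Bckdhb.

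The posterior and the medium dissection levels were each compared with the anterior level, to ask whether the family changes along the axis of the retrosplenial cortex. Counts summed per animal and level entered edgeR's quasi-likelihood test over 13628 genes, in a model with the animal as a term. Calls required an adjusted p under 0.05 (Benjamini-Hochberg over all genes) and a log2 difference of 1 or more in either direction. Of the 7 members tested, 0 were called in posterior versus anterior, where 0.103% of all genes were (14 genes, 11 higher and 3 lower). In medium versus anterior 0 of 7 were called as well, against 0.00734% of all genes (1 gene). At an unadjusted p under 0.05 the members numbered 2 and 1, beside 797 (5.85%) and 573 (4.2%) of all genes. DESeq2 on the same sums called 2 and 0 of the 7 members, beside 108 and 12 of the same 13628 genes. The members selected here were known from earlier results of these data. The median log2 difference of the members was -0.23 and -0.32, beside 0.00 and -0.03 over all genes.

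Car8 and Car2 had the largest differences. Car8 had 18, 134 and 21 counts at the posterior level of animals 1, 2 and 3, 0, 1 and 1 at the anterior level and none at the medium level. Posterior was therefore higher in all 3 animals, with 173 counts against 2, or 110.5 times per count sequenced (exact 95% interval 30.1 to 919.5, counting error only). Without the cell with most counts the ratio was 48.7 (13.03 to 409), from 76 counts. Both intervals treat each count as a separate draw, while the 173 posterior counts lay in 8 cells, so they are too narrow. The edgeR estimate was 6.31 ± 1.37 (log2, SE) with an adjusted p of 0.34, while DESeq2 gave an adjusted p of 0.00858. Class 4, which carried most of these counts, contained posterior cells alone. A single cell held 97 of the 134 counts of animal 2, and the 21 counts of animal 3 were all in 1 cell of class 6. Without classes 4 and 6 Car8 no longer passed the filter on low counts.

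Car2 gave 25.8, 4.14 and 11.98 CPM at the anterior level, 7.99, 1.28 and 0.592 at the medium level and 2.30, 0 and 2.94 at the posterior level. Within each animal anterior was highest. The log2 difference of posterior from anterior was -3.07 ± 0.99 (edgeR adjusted p = 0.68, DESeq2 adjusted p = 0.0359) and that of medium from anterior -2.26 ± 0.97 (edgeR adjusted p = 0.93). The summed oligodendrocyte markers moved with it, at 546, 171 and 209 CPM at the anterior level against 95.3 to 150.5 CPM in the other 6 sums. Without the 5 cells of class 12, a setting added after the data were seen, the Car2 differences were -0.66 ± 1.51 and 0.07 ± 1.58. These cells held most Car2 counts and were all anterior, so leaving them out lowers the anterior level by construction. The cause of the difference was not tested.

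Car10 and Car4 were lower at the posterior level on average, within the spread of the animals. Car10 gave 207, 119 and 218 CPM at the anterior level and 59.0, 161 and 140 at the posterior level, lower in animals 1 and 3 and higher in animal 2 (-0.64 ± 0.32, edgeR adjusted p = 0.91). Car4 gave 117, 155 and 84.3 CPM anterior and 87.7, 47.2 and 119 posterior, lower in animals 1 and 2 and higher in animal 3 (-0.57 ± 0.33, edgeR adjusted p = 0.98; 0.033 without animal 2). The extratelencephalic-like classes, poor in both genes, made up 104 of 292 posterior cells and 18 of 256 anterior cells. Without these 2 classes, again a setting added after the data were seen, the differences were 0.00 ± 0.29 for Car10 and 0.12 ± 0.35 for Car4. Leaving out classes that are poor in a gene and more frequent at the posterior level raises its posterior value by construction. Whether the mix of classes underlies the differences was therefore not tested. Car11 gave 311, 287 and 378 CPM anterior and 224, 328 and 292 posterior (-0.23 ± 0.16). Car7 gave 33.0, 54.97 and 77.1 CPM anterior and 51.6, 41.5 and 64.6 posterior (-0.06 ± 0.27), so the levels of both genes overlapped. Car12 gave 5.26, 1.08 and 1.30 CPM anterior, 13.3, 10.98 and 0.948 medium and 1.60, 0 and 9.71 posterior. Its differences, 0.47 ± 1.77 for posterior and 2.16 ± 1.51 for medium, had errors too wide for a direction.

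**Figure D3:**
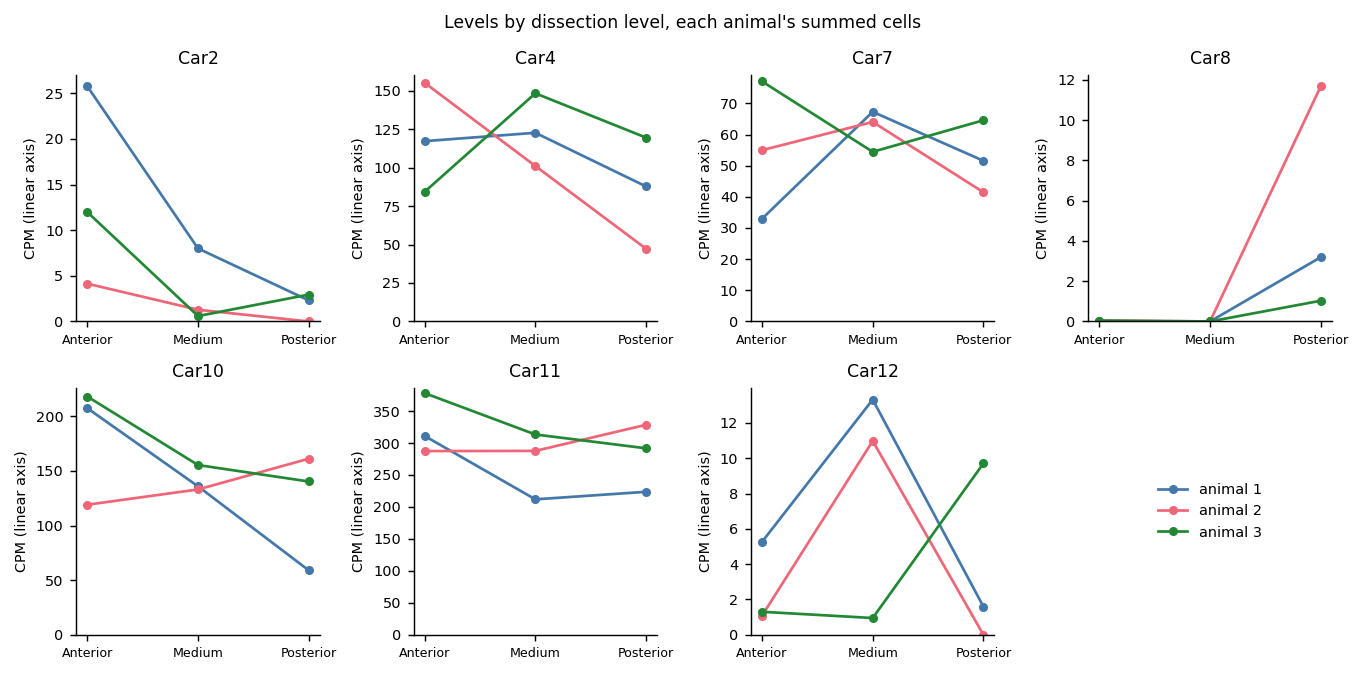
Level of each carbonic anhydrase at the anterior, medium and posterior level, in CPM of all cells of each animal (lines). Car8 is at 0 or near 0 at the other levels and at 3.19, 11.7 and 1.03 CPM at the posterior level, Car2 is highest anterior in each animal, and the lines of Car4, Car10 and Car12 cross between animals.

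**Figure D4:**
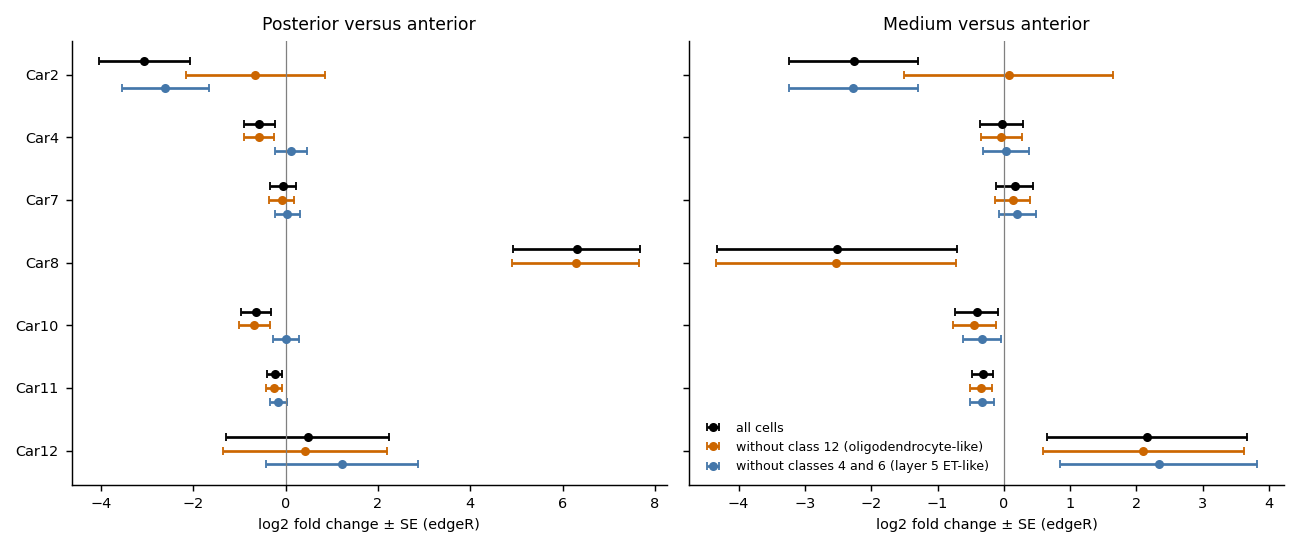
Log2 fold change ± SE (edgeR) of each carbonic anhydrase for posterior and medium versus anterior, from all cells (black), without the 5 oligodendrocyte-like cells (orange) and without the layer 5 extratelencephalic-like classes 4 and 6 (blue; Car8 was not tested there). For posterior, the Car2 difference is -0.66 without class 12, and the Car10 and Car4 differences are 0.00 and 0.12 without classes 4 and 6.

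Within classes, posterior and anterior could be compared in classes 1, 2, 3 and 7, those with at least 5 cells at both levels in at least 2 animals. Members called numbered 0 in each, where 0, 0, 0.018 and 0% of all genes were called. Car4, Car7, Car10 and Car11 were tested in all 4 classes, with Car2 added in class 2 and Car12 in class 3. At an unadjusted p under 0.05 the number of members was 0 in all 4 classes, and DESeq2 called 0 members in each. Over all genes, 292, 409, 444 and 287 (2.48, 3.59, 3.99 and 2.92%) had an unadjusted p under 0.05 in classes 1, 2, 3 and 7. With so few members tested, 0 is near these shares and is no result about the members. In classes 1, 2 and 7 edgeR called no gene, and DESeq2 called 13, 35 and 20. Car4 in class 2 had a log2 difference of -0.19 ± 0.23, with 569 and 435 CPM anterior and 376 and 498 posterior in animals 1 and 3. Car10 in class 1 had one of 0.36 ± 0.23, with 284 and 305 CPM anterior and 382 and 343 posterior in animals 2 and 3. Car12 in class 3 gave 44.5, 9.31 and 4.34 CPM anterior and 16.4, 0 and 73.8 posterior in animals 1, 2 and 3 (-0.56 ± 1.56), lower in 2 animals and higher in the third. The level of Car12 in class 3 was thus even over animals when all levels were summed, but uneven between levels of an animal. The difference between classes was planned for classes with 3 animals at both levels, and only class 3 had them. A fit over classes 1, 2, 3 and 7 was therefore added after the data were seen. The smallest unadjusted p of the 6 members tested, over 6 pairs of classes, was 0.098 (Car4, class 2 minus class 3, -1.04 ± 0.60), and each edgeR adjusted p was 1.

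Other genes of the acid-base system showed no call along the axis either. Of 10 further carbonic anhydrases and proteins with a like domain, 3 could be tested, and of 29 transporters and binding partners 24 could be. In posterior versus anterior 0 and 0 of them were called by edgeR, 1 and 4 had an unadjusted p under 0.05 (5.85% of all genes did), and DESeq2 called 0 and 0. In medium versus anterior the same counts were 0 and 0, 0 and 2 (4.2% of all genes), and 0 and 0. The median log2 difference of the 24 was 0.02 and 0.10 in these comparisons, beside 0.00 and -0.03 over all genes. Between classes, with the lowest value taken over all cells of a class, the widest spread in this list was that of Slc4a4, a sodium bicarbonate cotransporter, at 22.6 ± 4.02 CPM (n = 2) in class 8 and 0 in class 4. Slc9a9, a sodium/proton exchanger of endosomes, was 39.8 ± 3.82 in class 3 (n = 3) and 0.851 in class 5, and Slc16a3, a lactate exporter, 25.7 ± 1.42 in class 2 (n = 3) and 0.709 in class 5. Slc12a2, which loads cells with chloride, was 28.2 ± 33.4 in class 4 (n = 2) and 1.85 in class 7, with an SD above its mean. In the carbonic anhydrase list, Ptprz1 was 8.34 ± 6.53 in class 4 (n = 2), Car5b, the mitochondrial form, 4.54 ± 5.95 in class 7 (n = 2) and Ptprg 42.0 in class 9 (n = 1). Of the neurexins, Nrxn2 was highest in class 6 (152 ± 25.2, n = 3) and Nrxn3 in class 5 (358 ± 156, n = 3), other classes than Car10.

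In the sections the 1973 spots were grouped into 10 zones, again without the carbonic anhydrase genes and with each gene centred within its section. Zones are named by number and leading genes. They depended on the setting, by the adjusted Rand index of agreement between groupings, which is 1 for the same grouping. Against the zones used here it was 0.41 without centring, 0.54 at resolution 0.5 and 0.60 in the 1969 spots with at least 500 genes. The orders of zones below hold for this drawing of the zones. Zone 10 (46 spots, Ndst4 and Penk) was found in S4 alone and enters no order. Values are CPM of a zone in each section, and with 1 value per section no test was made. Over all spots Car2 had 2351 counts (64.6% of spots), Car11 1764 (55.9%), Car10 1460 (47.0%), Car4 509 (21.9%), Car7 263 (12.3%), Car12 137 (5.58%), Car8 130 (6.44%) and Car3 8 counts in 7 spots. The sections agreed for Car2 (158 and 160.0 CPM), Car4 (33.9 and 34.9) and Car12 (9.13 and 9.39), while Car10 was 89.8 in S4 and 109.9 in S8.

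Car2, rare in the dissociated cells, was present in every zone. Zones 7 (Ptgds, Vim and Gfap), 2 (Tshz2 and Slc17a6) and 4 (Foxp2 and Syt6) were highest, at 239 and 226, 205 and 239, and 207 and 223 CPM in S4 and S8. All other zones lay between 97.2 and 159 CPM. Oligodendrocyte markers summed to 5901 and 3617 CPM in zones 4 and 2, the highest of the 10 zones, and to 1775 in zone 7, where astrocyte markers (2570 CPM) were highest. With the spots of each section ordered by their oligodendrocyte markers and cut into 4 groups of like size, Car2 stood at 118, 139, 149.6 and 229 CPM from the lowest to the highest group in S4 and at 105, 125, 160.3 and 241 in S8. The spots lowest in these markers thus still held Car2 counts in both sections.

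Car4 and Car12 were highest in different zones. Car4 was highest in zones 1 (Robo3, Ddit4l and Cux2), with 57.7 and 61.8 CPM, and 9 (Rorb and Whrn), with 54.5 and 62.2, which overlapped each other and lay above all other zones. Zone 2 gave 25.9 and 39.6 CPM. Of its leading genes, Hsd11b1 also led class 2 and Syt2 class 6, while Tshz2 was a leading marker in classes 1, 2, 6, 7, 8, 11 and 12. The zone is thus not matched to 1 class. The lowest was zone 4 at 7.98 and 16.04 CPM, or 8 and 13 counts. Car12 was highest in zone 5 (Trh, Dlk1 and Calb2), at 45.3 and 51.8 CPM from 29 and 40 counts. This was 4.50 times the next zone on average among zones found in both sections, and Car12 was among the leading genes of zone 5. Summed markers of meningeal fibroblasts (163 CPM) and red blood cells (3367 CPM) were also highest in zone 5. For Car12, zone 8 (Cmip and Nr2f2) gave 14.1 and 7.48 CPM and zones 1, 3 and 9 between 0 and 5.29. Zone 10 of S4 had 20.6 CPM, from 11 counts. A count of both genes occurred in 23 spots of S4 and 7 of S8. In S4, Car12 was found in 9.54% of spots with Car4 and 4.87% of the other spots, and in S8 in 3.65% and 5.53%, so the sections ran in opposite directions.

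Car10 was highest in zone 1 (140.0 and 178 CPM) and lowest in zone 2 (33.8 and 52.5 CPM), the Tshz2 zone, and the 2 sections of zone 2 lay below those of all other zones. Every other neighbour in its order overlapped. Car11 ran from 95.2 CPM on average in zone 6 (Ccn2 and Nxph3) to 154.7 in zone 1, with each zone overlapping the next. Car7 was 6.50 and 5.61 CPM on average in zones 5 and 8 and 10.46 to 24.8 elsewhere. Car8 stayed at 15 counts or fewer in each zone of each section, with its lowest values in zone 4 (1.99 and 2.47 CPM) and no zone whose sections both stood above the rest. Car3 never exceeded 3.27 CPM in a zone and section, so no pattern was detectable at this depth.

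**Figure D5:**
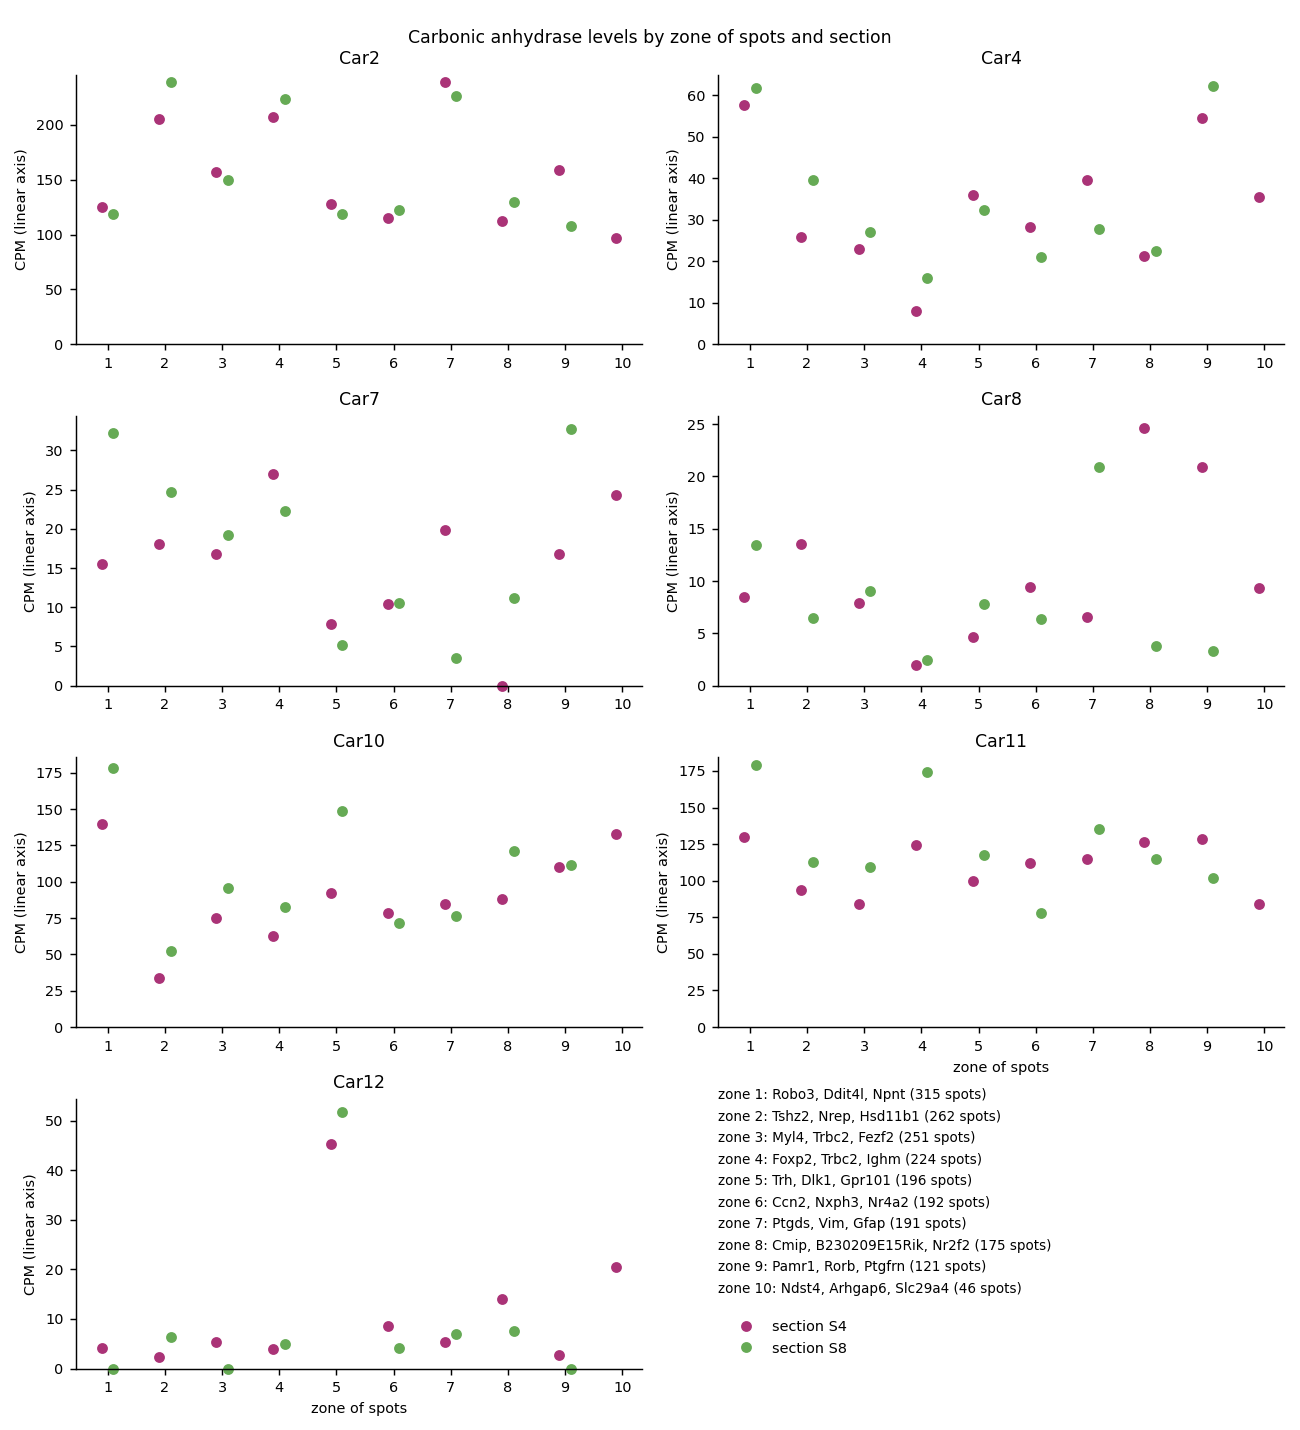
Level of each carbonic anhydrase by zone of spots, in CPM of the summed spots of section S4 (purple) and S8 (green), with zone 10 present in S4 alone. In this drawing of the zones, Car12 stands apart in zone 5, Car4 in zones 1 and 9, Car2 in zones 2, 4 and 7, and Car10 is lowest in zone 2.

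Over 19 sums per section and zone, among 9574 genes of at least 10 CPM, Car2 was most like Apod (r = 0.92), Psat1 (0.90) and Csrp1 (0.88). Car4 was most like Tmem145 (0.88), Car10 like Sorbs2 (0.88), Car12 like Arhgap6 (0.87) and Car7 like Bcl11a (0.93), while Car11 and Car8 reached 0.74 with Gtpbp3 and 0.78 with Wls. None of these genes was among those most like the same member in the cells. Further members of the family were scarce in the spots: Car14 and Car15 had 80 counts each, Car5b 41, and Car1, Car5a, Car6, Car9 and Car13 at most 2.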

How the data were processed

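Per the labels, neurons of 11 samples from 3 animals and spots of 2 sections were sequenced. The authors deposited whole-number counts per gene for each cell and each spot, not normalized, as read from the values. Seurat and Space Ranger and the builds NCBIM37 and mm10 are named in the submitters' processing notes, and whether the cell counts are reads or molecules is not given in the sources used here. No count column was without a sample (0). Clusters were drawn with scanpy 1.11.5 (2000 variable genes, 30 components, 15 neighbours, resolution 1). Tests used edgeR 4.0.16 (TMM, genes passing filterByExpr, Benjamini-Hochberg) on sums per animal and level, with DESeq2 1.42.0 as an alternative. The animal number comes from a deposited table and pairs the sums: the correlation of deviations between sums of an animal was 0.05 to 0.22. On simulated counts for posterior versus anterior (13628 genes), 49 of 100 genes changed by 1.5 and 77 of 100 changed by 2.5 (log2) were recovered, with 5 false calls. The simulation held no differences between animals, and its changed genes were drawn at random from all genes. It therefore does not tell how often a change in low-count members such as Car2, Car8 and Car12 would be recovered. The members and lists were chosen with earlier results of these data known. All members were described, and other genes were named by likeness, by their spread between classes within a list, by being called, or as binding partners (Itpr1, Nrxn2 and Nrxn3, named for that role). Some genes that these rules select are not reported here. Samples of 1 animal are not independent, and no test of levels used cells as replicates. The exact intervals for shares of cells treat cells as separate draws and leave out the spread between animals.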

Additional observations from a re-analysis of the deposited data

Results flagged for a closer look

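Car10 had posterior minus anterior differences of opposite sign in some classes, on the log2(CPM + 1) scale. They were 0.42 and 0.17 in class 1 (animals 2 and 3) and 0.08 and 0.66 in class 2 (animals 1 and 3), against -0.24 and -0.22 in class 7 (animals 2 and 3). Class 3, with 3 animals, gave -0.61, 0.16 and -0.00047. The mean of class 1 minus that of class 7 was 0.53, and class 2 minus class 7 gave 0.60. In an edgeR fit of the difference itself, added after seeing the data, these were 0.59 ± 0.44 (unadjusted p = 0.19) and 0.70 ± 0.46 (unadjusted p = 0.14), with an adjusted p of 1 for both, so neither passed the test.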

How the results depend on the processing

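In posterior versus anterior 14 genes were called, against 108 with DESeq2, 43 with sums per sample, 6 without class 12, 3 without classes 4 and 6, and 1 to 10 with an animal left out (1 without animal 1, 4 without animal 3). Without the animal as a block, 1 gene was called. Members called stayed at 0 except with DESeq2 (2). In medium versus anterior 1 gene was called, against 12 with DESeq2, 0 without class 12 and 1 to 2 with an animal left out. Within classes, DESeq2 called 13, 35, 58 and 20 genes in classes 1, 2, 3 and 7. Class 3 had 2 calls, 1 without the block, 6 without a filter and 1 to 7 with an animal left out, and class 1 had 0 to 1. The causes were not tested. The settings without class 12 and without classes 4 and 6 were chosen after seeing the data.

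Members that turned direction were never called in the settings concerned. For posterior, Car7 was 0.079 after thinning and 0.034 without classes 4 and 6, where Car4 was 0.12 and Car10 0.00098. With an animal left out, Car4 ranged from -1.08 to 0.033, Car7 from -0.34 to 0.12 and Car12 from -2.39 to 1.80. For medium, Car4 was 0.0087 with total counts, 0.022 without the block, 0.034 with sums per sample, 0.059 without the shallowest cells, 0.0016 after thinning and 0.037 without classes 4 and 6. Car7 was -0.0065 without the shallowest cells and -0.035 after thinning, and Car2 was 0.073 without class 12. With an animal left out, Car4 ranged from -0.36 to 0.36 and Car7 from -0.13 to 0.54. In class 2, Car2 was 1.07 without the block and -0.81 to 0.69 with an animal left out, and Car4 -0.52 to 0.12. In class 3, Car12 was 0.85 without the block and -2.79 to 1.48 with an animal left out.

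Class means over animals were highest in class 2 for Car2 (5.09 CPM) and Car4 (438), and in class 3 for Car12 (33.7). Class 12, with 390 CPM of Car2 over all its cells, had too few cells per animal for such a mean. For the class where each gene was highest, the mean became 24.2 CPM for Car2 and 424 for Car4 at resolution 0.5, and 36.4 for Car12 after thinning. Resolution 0.5 drew 8 classes, fewer than the main setting, so the 24.2 CPM of Car2 may include cells of other classes. Whether the cells of class 12 were among them was not tested. For zones, the level was read in the redrawn zone that overlapped most with the highest zone, and another redrawn zone may stand higher. It was 209 for Car2, 55.5 for Car4 and 41.1 for Car12 in spots of at least 500 genes. Car12 gave 40.5 without centring and 22.9 at resolution 0.5. Car2, Car8 and Car12 rest on few cells, which limits what can be detected for them.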
